A study of Mus musculus with 6 samples.

Results

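Proneural genes and the Notch pathway decide, cell by cell, whether a cortical progenitor divides again or becomes a neuron. Proneural basic helix-loop-helix (bHLH) factors such as Neurog2 switch on neuronal genes together with the Notch ligands Dll1 and Dll3, and ligand on one cell activates the receptor Notch1 on its neighbour. The cleaved receptor joins the DNA-binding protein RBPJ and switches on the repressors Hes1 and Hes5, which hold proneural genes down, while Eomes marks the intermediate progenitors that follow. The 9 genes described here, Neurog1, Neurog2, Eomes, Dll1, Dll3, Notch1, Hes1, Hes5 and Hes6, were chosen by name for these roles, and all 9 have a row among the 23420 genes of the table.

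The study sequenced RNA from mouse neocortex at embryonic day 18.5, late in cortical neurogenesis, in embryos labelled Tshz3 mutant and in wild type. There were 3 libraries of each, with cortices of 3 to 4 embryos from several litters pooled in every library. The sources used here do not give the allele, the strain or the part of Tshz3 that was changed. Values are read counts scaled to library size (CPM), and a fold change is mutant-labelled over wild type on the log2 scale.

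Libraries held 18569383 to 24147810 reads assigned to genes. Tshz3 itself stood at 89.8, 93.1 and 99.2 CPM in mutant-labelled libraries 1, 2 and 3, against 78.7, 83.0 and 89.3 CPM in wild type, so the gene-level count does not check the labels, and the term mutant-labelled is used throughout. All 9 genes of the projection neuron list passed the filter on low counts, and they summed to 5636 to 6064 CPM. The largest wild-type means in that sum were those of Tubb3, 3022 CPM, and Map2, 1285 CPM, which other neurons also express. The sum therefore does not define the tissue. Same-numbered libraries varied together around their genotype's mean, so values from a fit with the number as a block stand beside the others where they change a call. Summed markers of the cortical hem and choroid plexus, which border the neocortex, were 808 CPM in mutant-labelled library 1 and 821 CPM in wild-type library 1, against 121 to 228 CPM in the other 4 libraries. Most of these sums was the choroid plexus gene Ttr, at 787 and 800 CPM in the libraries numbered 1 and 115 to 219 CPM in the other 4. The hem markers Wnt3a, Wnt2b and Lmx1a reached at most 2.09 CPM, so the sums say little about the hem. In RNA from whole tissue, fewer cells of a type and less RNA per cell cannot be told apart.

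Promoter sequences are shown for Neurog2, the member that passed a test, for Hes5, a direct Notch target, and for Dll1, a target of proneural factors. RefSeq entries on GRCm38.p6 matched 8 of the 9 genes, all but Hes1, and each window runs from 250 bases before the annotated start to 50 after it. Motifs were searched on both strands, and no marked match overlaps a match of the other motifs. Capitals mark the N box CACNAG, bound by Hes repressors, in Neurog2 (chr3:127632886-127633185, plus strand). They mark the RBPJ motif TGGGAA, or its reverse complement, in Hes5 (chr4:154960673-154960972, plus strand), and the E box CANNTG, bound by bHLH activators, in Dll1 (chr17:15376883-15377182, minus strand, the outer of 2 entries).
Neurog2: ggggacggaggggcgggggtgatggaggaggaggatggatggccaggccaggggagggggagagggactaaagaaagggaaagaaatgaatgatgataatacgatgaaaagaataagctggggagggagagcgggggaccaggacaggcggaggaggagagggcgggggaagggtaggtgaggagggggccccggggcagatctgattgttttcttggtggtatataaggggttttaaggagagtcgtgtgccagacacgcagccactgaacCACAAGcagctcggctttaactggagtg
Hes5: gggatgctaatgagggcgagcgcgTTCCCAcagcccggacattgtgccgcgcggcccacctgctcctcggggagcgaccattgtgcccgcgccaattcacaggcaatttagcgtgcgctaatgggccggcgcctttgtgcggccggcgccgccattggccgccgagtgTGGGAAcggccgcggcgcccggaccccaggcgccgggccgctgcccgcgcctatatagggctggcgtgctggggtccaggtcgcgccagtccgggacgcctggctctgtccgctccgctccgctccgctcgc
Dll1: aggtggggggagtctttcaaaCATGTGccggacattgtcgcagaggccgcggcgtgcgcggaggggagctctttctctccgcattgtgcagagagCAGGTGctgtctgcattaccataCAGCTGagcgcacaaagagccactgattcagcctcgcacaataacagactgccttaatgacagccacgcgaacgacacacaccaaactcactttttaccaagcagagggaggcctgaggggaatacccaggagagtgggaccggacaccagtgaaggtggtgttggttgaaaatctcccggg
The Hes5 window held 2 RBPJ motifs, at −226 and −82 from the start. At least 1 such motif was found in 25.6% of 32851 promoter windows of this length, and at least 2 in 3.79%. Neurog2 held 1 N box, 22 bases after the start, a motif present in 42.5% of windows. Dll1 held 3 E boxes in the window shown and 1 in the window of its inner entry. At least 1 E box was found in 72.3% of windows and at least 2 in 39.6%. These matches describe letters in the reference sequence, and binding was not measured.

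Of the 9 genes, 8 had enough reads to be tested. Without the block, edgeR's quasi-likelihood test called 0 of these 8 at an adjusted p of 0.05, where it called 0.0752% of all 14618 genes tested. DESeq2 also called 0 of the 8, where it called 108 of all genes. At an unadjusted p under 0.05 edgeR found 3 of the 8, Neurog2, Hes1 and Dll1, beside 7.09% of all genes. With the block, Neurog2 alone passed in edgeR, 1 of 8 beside 3.46% of all genes (1.97% higher and 1.49% lower). DESeq2 with the block passed 0 of the 8 and 203 of all genes. At an unadjusted p under 0.05 the blocked edgeR fit found 5 of the 8, adding Eomes and Hes5, beside 17.9% of all genes. The median log2 fold change of the 8 was 0.01, and that of all genes tested was −0.01.

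**Figure D1:**
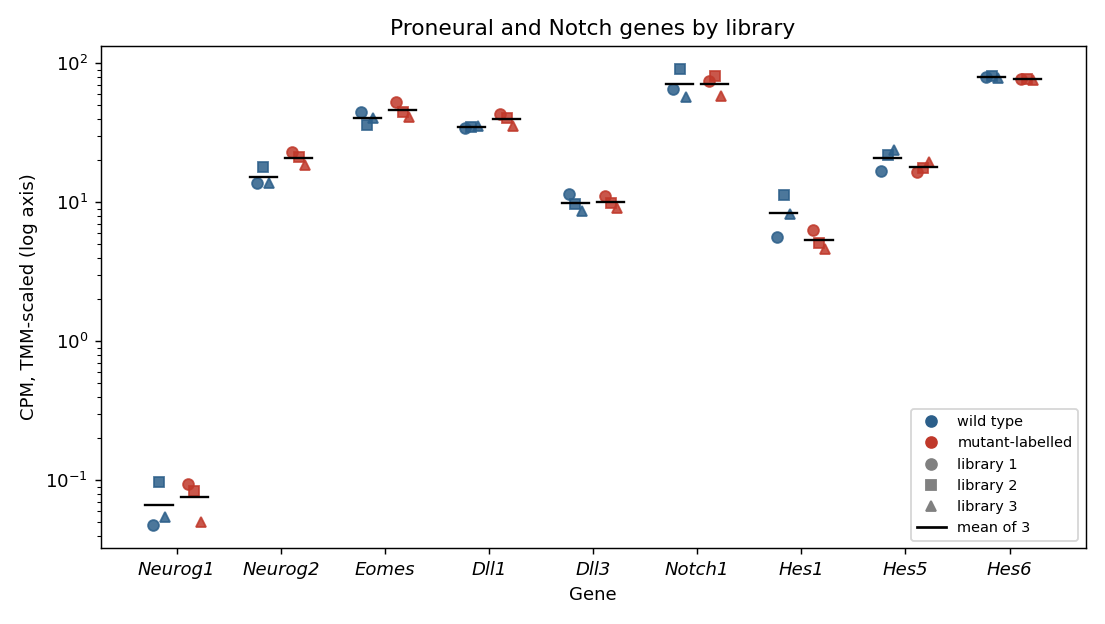
CPM of each of the 9 genes (horizontal axis) in each of the 6 libraries, on a logarithmic vertical axis; blue points are wild type, red points mutant-labelled, symbols give the library number and bars the mean of 3. Neurog2 lies higher in all 3 mutant-labelled libraries than in any wild-type library, Hes1 and Hes5 overlap, and Neurog1 lies near the limit of detection.

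Neurog2 encodes the main proneural factor of the embryonic neocortex. It stood at 22.9, 21.1 and 18.4 CPM in mutant-labelled libraries 1, 2 and 3, against 13.8, 17.9 and 13.8 CPM in wild-type libraries 1, 2 and 3. Every mutant-labelled library lay above every wild-type library, the closest being 18.4 against 17.9 CPM. The fold change was 0.45 on the log2 scale (SE 0.13, n = 3 per group, edgeR adjusted p = 0.471), or 1.37-fold. With the block it was 0.46 (SE 0.10, 95% interval 0.24 to 0.67) with an edgeR adjusted p of 0.0223, and Neurog2 rose by that test. Within numbers 1, 2 and 3 the log2 differences were 0.72, 0.24 and 0.41. Leaving out number 2 gave 0.58 (edgeR adjusted p = 1.5e-06). Leaving out number 1 gave 0.32 (adjusted p = 0.187) and leaving out number 3 gave 0.48 (adjusted p = 0.236), so the call was lost in both. These fits have only 1 residual degree of freedom. They called 1874 of all genes without number 2, 295 without number 1 and 62 without number 3. DESeq2 with the block gave an adjusted p of 0.118.

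Summed markers of progenitors and newborn neurons are given beside Neurog2. The 17 radial glia markers summed to 2565 to 2674 CPM in mutant-labelled libraries and 2476 to 2540 CPM in wild type, but single genes split, with 8 above and 9 below 0 in log2 fold change, a median of −0.0015, and 0 of 17 passing either fit. The 14 intermediate progenitor and newborn neuron genes, members left out, summed to 543 to 572 CPM against 526 to 530 CPM, with 6 of the 13 tested above 0 and 7 below. The 1 gene of this list called with the block, Elavl4, is also expressed in mature neurons. It stood at 134 to 141 CPM in mutant-labelled libraries against 104 to 126 CPM in wild type. The sum therefore does not stand for intermediate progenitors alone. Sums of cell division genes overlapped, at 430 to 550 CPM against 413 to 505 CPM, with 15 of 18 above 0 in log2 fold change and 0 of 18 passing. Of all 14618 genes tested, 6978 were above 0. The cell division sums fell from library 1 to 3 in both genotypes, so the 18 genes cannot be read as separate results. No gene of these lists was at 0 reads. The part of these differences in the Neurog2 result was not tested.

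Neurog1, the closest relative of Neurog2, had 2, 2 and 1 reads in mutant-labelled libraries and 1, 2 and 1 in wild type. These 9 reads in all are too few for a fold change or a test.

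Eomes, also called Tbr2, encodes the T-box factor of intermediate progenitors and is itself activated downstream of Neurog2. Its levels were 52.9, 44.7 and 41.1 CPM in mutant-labelled libraries 1 to 3 and 44.2, 35.8 and 40.4 CPM in wild type. The groups overlapped, with wild-type library 1 above mutant-labelled library 3. The log2 fold change was 0.20 (SE 0.11, edgeR adjusted p = 0.805, blocked 0.125), with 0.26, 0.32 and 0.03 within numbers 1, 2 and 3. Without mutant-labelled library 1 the unblocked value was 0.10, without wild-type library 2 it was 0.13, and without mutant-labelled library 3 and wild-type library 1 together it was 0.36. A reverse-strand transcript, Gm33460, overlaps exons of Eomes, and the sources used here do not give the strand setting of the counting.

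Dll1 encodes the main Notch ligand made by cells entering neuronal differentiation. Mutant-labelled libraries held 43.4, 40.3 and 35.6 CPM and wild-type libraries 34.0, 34.97 and 35.1 CPM. The groups did not overlap, though mutant-labelled library 3 exceeded wild-type library 3 by only 35.6 against 35.1 CPM. The log2 fold change was 0.20 (SE 0.08, edgeR adjusted p = 0.687, blocked 0.167), and the differences within numbers were 0.35, 0.20 and 0.02. The unblocked fold change was 0.13 without mutant-labelled library 1. Dll3 encodes a divergent Delta protein that acts inside the signal-sending cell rather than as an activating ligand. It stood at 11.03, 9.88 and 9.17 CPM in mutant-labelled libraries and 11.4, 9.66 and 8.60 CPM in wild type, so that same-numbered libraries were close to each other. Its log2 fold change was 0.02 (SE 0.14) with a 95% interval of −0.31 to 0.35, and changed sign when mutant-labelled library 1 or wild-type library 3 was left out. Unlike Dll3, Dll1 is overlapped on the reverse strand by an annotated RNA, A930024N18Rik.

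Notch1 encodes the principal Notch receptor of cortical progenitors and is also made by endothelial cells. Levels were 73.9, 81.5 and 58.0 CPM in mutant-labelled libraries and 65.7, 91.2 and 56.8 CPM in wild type. Both libraries numbered 2 were highest and both numbered 3 lowest, so the spread followed the number and not the genotype. The blocked log2 fold change was 0.01 (SE 0.06, 95% interval −0.12 to 0.14), against an unblocked SE of 0.20. Its sign differed from the unblocked fit in 8 of 16 alternative settings. The 10 endothelial markers summed to 178 to 228 CPM in mutant-labelled libraries and 181 to 244 CPM in wild type, with all 10 detected and 0 passing. A pair of transcripts on the reverse strand overlap exons of Notch1.

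Hes1 encodes a repressor induced by Notch whose level oscillates in neural progenitors and opposes Neurog2 and Dll1. It stood at 6.36, 5.13 and 4.58 CPM in mutant-labelled libraries 1, 2 and 3, against 5.59, 11.3 and 8.27 CPM in wild-type libraries 1, 2 and 3. Wild-type libraries 2 and 3 lay above all mutant-labelled libraries, while wild-type library 1 lay below mutant-labelled library 1. The log2 fold change was −0.64 (SE 0.26, 95% interval −1.25 to −0.04, edgeR adjusted p = 0.678), and with the block −0.62 (SE 0.25, adjusted p = 0.269). Within numbers the differences were 0.18, −1.12 and −0.84, the first in the opposite direction. Without number 1 the blocked value was −1.0 with an adjusted p of 0.000255, and without wild-type library 2 the unblocked value was −0.37. The hem and choroid plexus sums given above were high in the same 2 libraries numbered 1. The 10 pericyte and meningeal markers, all detected, summed to 309, 157 and 123 CPM in mutant-labelled libraries 1, 2 and 3 and to 365, 266 and 108 CPM in wild type. All 10 had a log2 fold change below 0 (7640 of all 14618 genes tested), with a median of −0.31, and 0 passed. The pericyte genes Pdgfrb, Rgs5, Kcnj8 and Abcc9 were near 0, at −0.006, −0.036, −0.010 and −0.003. The other genes of the list ran from −0.29 to −0.62. The sum of all 10, like Hes1, was higher in wild-type library 2 than in mutant-labelled library 2. Unlike Hes1, the sum was higher in mutant-labelled library 3 than in wild-type library 3. The 2 with the largest fold change, the collagen genes Col1a2 and Col3a1, differed by −1.42 and −1.43 within number 2. The part of these markers in the Hes1 result was not tested.

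The 12 immediate-early genes, transcribed within minutes of stimulation, stood lower beside Hes1. All 12 had a log2 fold change below 0, beside 7640 of all 14618 genes tested. In 10 of 12 every mutant-labelled library lay below every wild-type library, beside 890 of all genes tested. The test of edgeR called 1 lower without the block (4 of all genes) and 6 lower with it (1.49% of all genes). This list was chosen with earlier results of these data known. They summed to 98.9, 84.0 and 93.1 CPM in mutant-labelled libraries 1, 2 and 3 and to 156, 165 and 194 CPM in wild type. Wild-type library 1 was thus high for these genes as a sum and low for Hes1, but single genes differed there. Egr1, the largest part of the sum, was at 48.0 CPM in that library against 13.1 to 15.6 CPM in mutant-labelled libraries. The other genes called with the block also stood above the mutant-labelled libraries there. Nr4a1 was at 23.8 against 11.4 to 14.7 CPM, Ier2 at 12.8 against 7.92 to 9.52 CPM and Klf4 at 10.5 against 2.88 to 5.56 CPM. Fosb was at 1.47 against 0.45 to 0.66 CPM and Egr2 at 1.23 against 0.42 to 0.65 CPM. Among genes not called, Fos was at 6.26 against 2.06 to 3.44 CPM. Closer to the mutant-labelled libraries were Junb at 5.26 against 4.75 to 5.14 CPM, and Dusp1 at 26.6 against 23.8 to 25.9 CPM. Whether the 12 genes bear on the Hes1 values was not tested.

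Hes5 encodes the second main Notch-induced repressor of cortical progenitors. Its values were 16.5, 17.7 and 19.4 CPM in mutant-labelled libraries and 16.7, 21.9 and 23.7 CPM in wild type. As for Hes1, wild-type libraries 2 and 3 were above every mutant-labelled library and wild-type library 1 was not. The log2 fold change was −0.22 (SE 0.14, edgeR adjusted p = 0.824, blocked 0.226), and the differences within numbers were −0.02, −0.31 and −0.29. The unblocked value was −0.12 without wild-type library 3, −0.35 without wild-type library 1, and −0.41 without mutant-labelled library 3 and wild-type library 1 together. An annotated transcript, Gm20421, overlaps Hes5 exons on the reverse strand. The promoter shown above, with 2 RBPJ motifs, belongs to this gene.

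Hes6 promotes neuronal differentiation by opposing Hes1 and is switched on by proneural factors. It varied least of the tested members over the 6 libraries, at 76.9, 77.4 and 75.9 CPM in mutant-labelled libraries and 80.1, 81.0 and 78.0 CPM in wild type. Groups did not overlap, yet the log2 fold change was only −0.05 (SE 0.05, 95% interval −0.17 to 0.06, edgeR adjusted p = 0.9). Members without overlap were thus Neurog2 and Dll1 above and Hes6 below, 3 of 8 tested, beside 13.5% of all genes tested in either direction and 7.42% above. Neurog2, Eomes, Dll1, Hes5 and Hes6 kept one sign in all 3 same-numbered comparisons, 5 of 8, beside 39% of all genes.

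**Figure D2:**
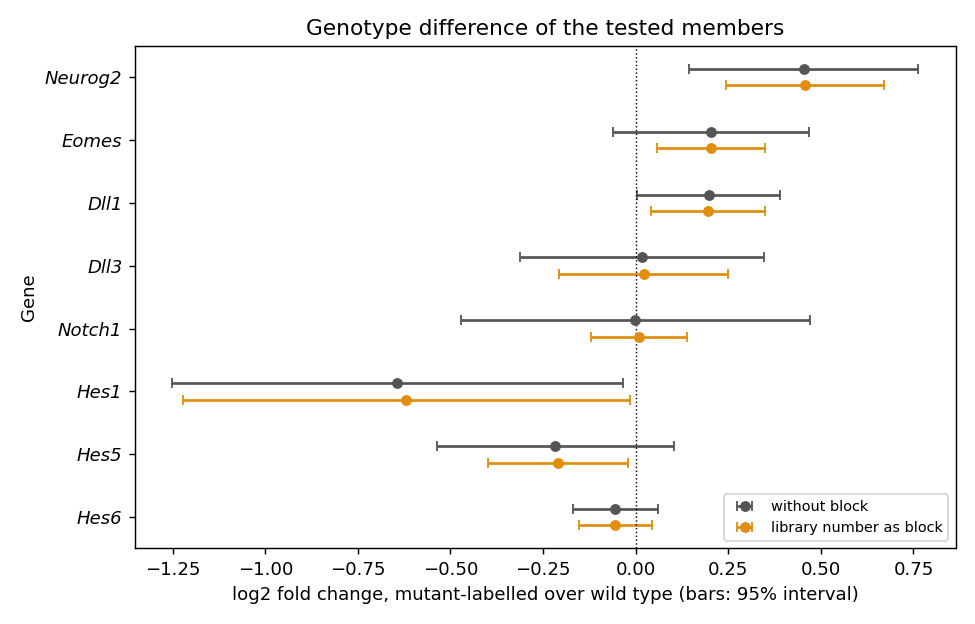
Log2 fold change (horizontal axis) of the 8 tested genes (vertical axis) without the block in grey and with the library number as a block in orange; bars are 95% intervals from the edgeR fit. Blocked intervals of Neurog2, Eomes and Dll1 lie above 0 and those of Hes1 and Hes5 below it, before any adjustment for the number of genes tested.

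**Figure D3:**
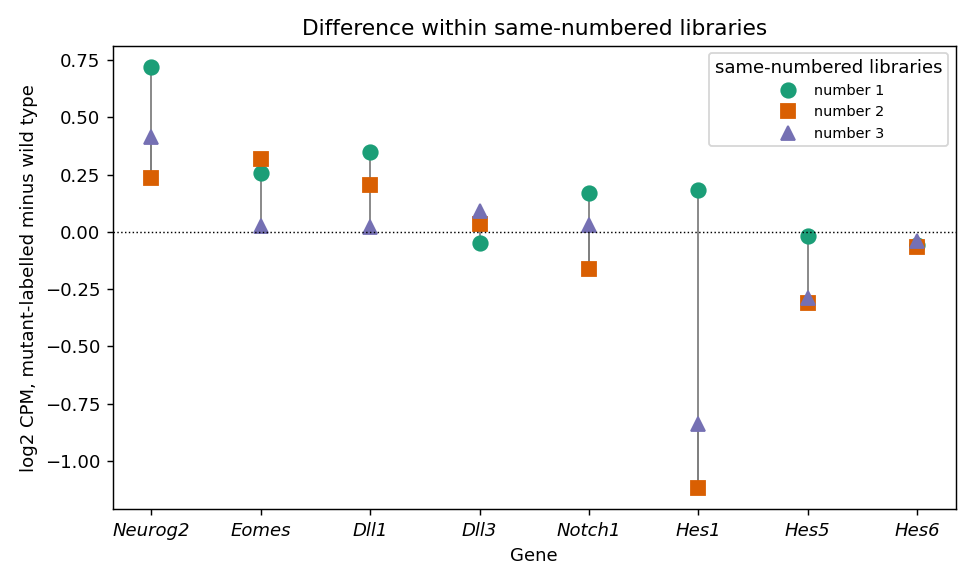
Difference in log2 CPM between the mutant-labelled and the wild-type library of the same number (vertical axis) for each tested gene (horizontal axis). Neurog2 ran from 0.24 to 0.72 and Hes1 from −1.12 to 0.18, while Hes6 stayed between −0.06 and −0.04.

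Levels of different genes were compared after division by exon length in GENCODE M21, in CPM per kilobase, as a description. In wild type the order was Hes6 at 44.1 ± 0.837 (SD, n = 3), Hes5 at 15.2 ± 2.67, Eomes at 9.66 ± 1.01, Dll1 at 8.23 ± 0.138, Neurog2 at 6.81 ± 1.05, Notch1 at 5.0 ± 1.25, Hes1 at 4.11 ± 1.39, Dll3 at 3.47 ± 0.501 and Neurog1 at 0.0392 ± 0.0158 CPM per kilobase. Hes6 and Hes5 stood clear of their neighbours in every wild-type library, as did Dll3 from Neurog1. Neurog2 and Notch1, Notch1 and Hes1, and Hes1 and Dll3 overlapped in their wild-type ranges. Eomes at 8.63 to 10.6 lay just above Dll1 at 8.07 to 8.32 CPM per kilobase. Dll1 in turn lay barely above Neurog2 at 6.18 to 8.02 CPM per kilobase. In mutant-labelled libraries Dll3, at 3.22 to 3.87 CPM per kilobase, lay above Hes1 at 2.25 to 3.12, whereas in wild type the mean of Hes1 was the higher. With the longest coding transcript as length the mutant-labelled ranges overlapped, at 3.50 to 4.21 for Dll3 and 3.12 to 4.33 CPM per kilobase for Hes1. By that length, Notch1 moved ahead of Neurog2 in wild type and the rest of the order held.

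The other genes of the pathway are given by list, beside 3.46% of all genes called with the block and 0.0752% without it. Among 6 other ligands and 3 other receptors, 0 passed either edgeR fit. Jag1, a ligand of the Jagged class, had a log2 fold change of 0.12, and Dlk1, a non-canonical ligand, had −0.42 with 5.75, 2.46 and 3.02 CPM in mutant-labelled libraries against 8.58, 3.24 and 3.10 CPM in wild type. The receptor Notch2 had −0.11 and Notch3 −0.01. Like Notch1, Notch2 was highest in wild-type library 2, at 68.2 CPM against 44.5 to 51.8 CPM in the other 5 libraries.

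Of 18 genes for receptor glycosylation, ligand trafficking and cleavage, 0 passed. Neurl1b, a ubiquitin ligase that promotes ligand endocytosis, came nearest, at 67.8, 64.4 and 68.0 CPM in mutant-labelled libraries and 58.9, 55.9 and 61.2 CPM in wild type. Those groups did not overlap, and the log2 fold change was 0.19 (SE 0.06) with edgeR's adjusted p = 0.515, blocked 0.061. Mib1, another such ligase, had −0.31, with 14.1 CPM in mutant-labelled library 2 and 19.9 CPM in wild-type library 2 against 2.99 to 4.79 CPM in the other 4. Of 16 genes of the RBPJ complex and its corepressors 0 passed, the coactivator gene Maml1 having 0.27 and Maml2 −0.12. Of 9 negative regulators 0 passed, and the ubiquitin ligase gene Itch had 0.19 and Dtx2 0.22.

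Among the 7 other Hes and Hey repressors, 5 were tested and 0 passed. Hey1, a Notch-induced repressor, stood at 21.7, 22.6 and 22.4 CPM in mutant-labelled libraries and 27.2, 26.6 and 27.2 CPM in wild type. All mutant-labelled libraries were lower, by similar amounts in each number, and the log2 fold change was −0.28 (SE 0.07, edgeR adjusted p = 0.354, blocked 0.0525). The blocked adjusted p was 0.246, 0.0089 and 0.392 without number 1, 2 or 3, and 0.398 in DESeq2 with the block. Hey2, its close relative, had −0.15.

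Of the other bHLH and Id genes, 15 were tested and the block called 0 higher and 1 lower, with 0 called without it. Id2 encodes an inhibitor that binds the partners of bHLH factors. It was 206, 200 and 209 CPM in mutant-labelled libraries and 275, 223 and 291 CPM in wild type. The groups did not overlap, and Id2 fell with the block by 0.35 on the log2 scale (SE 0.06, edgeR adjusted p = 0.00754, unblocked 0.439). Without number 3 the blocked call was lost (edgeR adjusted p = 0.156), and it held without number 1 or 2 and in DESeq2 with the block.

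The 10 ganglionic eminence and interneuron markers, all detected, summed to 482 to 556 CPM in mutant-labelled libraries and 478 to 574 CPM in wild type, with 5 above and 5 below 0 in log2 fold change. Sp8, a transcription factor of interneuron lineages, was the 1 of 10 called with the block, by 0.43 (SE 0.11, edgeR adjusted p = 0.0398), a call lost without number 1 (adjusted p = 0.143), without number 3 (0.283) and in DESeq2 with the block (0.396).

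Of 13 intermediate progenitor and newborn neuron genes tested, members left out, the block called 1 higher and 0 lower. That gene was Elavl4, which encodes an RNA-binding protein of newborn and mature neurons, at 134, 141 and 141 CPM in mutant-labelled libraries and 104, 113 and 126 CPM in wild type. It rose with the block by 0.28 (SE 0.05, edgeR adjusted p = 0.0035, unblocked 0.444), and the call held without any 1 number. Across the list 6 genes were above 0 and 7 below, with a median log2 fold change of −0.05.

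**Figure D4:**
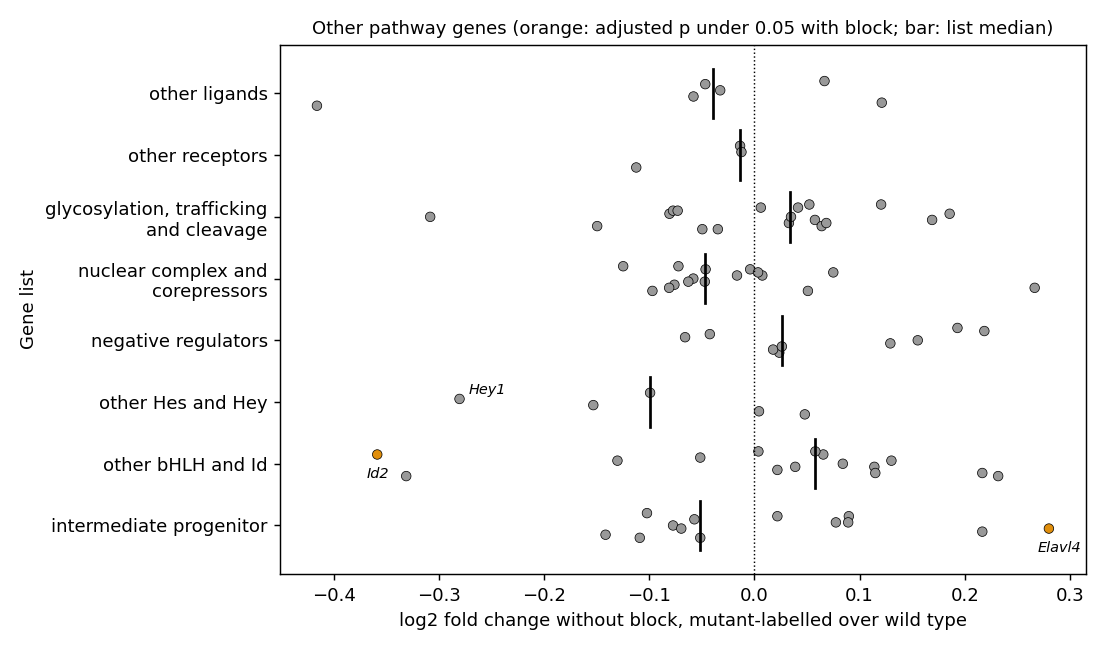
Log2 fold change without the block (horizontal axis) of the tested genes in 8 lists of pathway and lineage genes, members left out; orange points passed with the block and black bars are list medians. Elavl4 and Id2 passed, Hey1 is labelled although it did not, and the list medians lie between −0.10 and 0.06.

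For the 2 members with the largest blocked fold changes, the genes with the most similar profile were found by the root-mean-square difference of centred log2 CPM over the 6 libraries, among 12850 genes whose mean log2 CPM was 1 or more. Nearest to Neurog2 were Mis12, a kinetochore gene, at 0.04, Mex3c, an RNA-binding ubiquitin ligase gene, at 0.05, and Kif2c, a mitotic kinesin gene, at 0.07 log2 units, where the median gene was at 0.30. Nearest to Hes1 were Cyr61, a matricellular protein gene, at 0.09, and the AP-1 genes Jun at 0.14 and Junb at 0.15, where the median gene was at 0.45. Cyr61 was 12.04, 25.8 and 16.0 CPM in wild-type libraries 1, 2 and 3 and 13.8, 11.9 and 10.3 CPM in mutant-labelled libraries, high in the same wild-type libraries as Hes1. These genes were picked from many with only 6 libraries, so the closeness is a description.

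**Figure D5:**
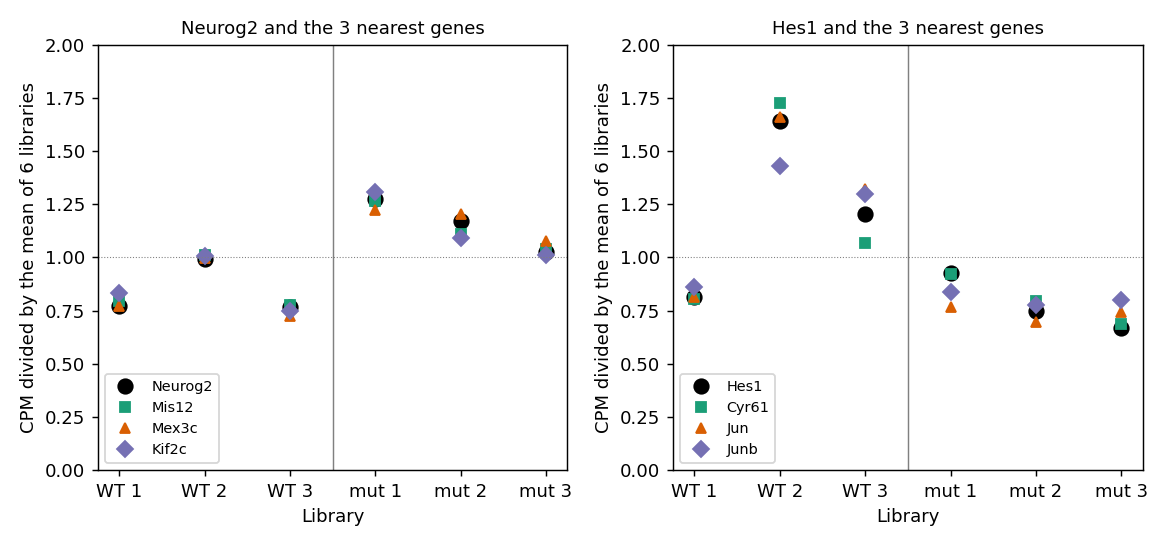
CPM of Neurog2 (left) and Hes1 (right) with the 3 genes nearest to each in the 6 libraries (horizontal axis), each divided by its mean over the 6 libraries (vertical axis). Neurog2 and its neighbours lie above 1 in the mutant-labelled libraries, and Hes1 and its neighbours peak in wild-type library 2.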

How the data were processed

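RNA sequencing counts of 6 mouse neocortex libraries were used, 3 per genotype, grouped by their labels. The authors deposited raw read counts per gene symbol, without normalization. Libraries were stranded, per the labels' protocols. CASAVA 1.8.2, TopHat2 2.0.9, Bowtie2 2.1.0, HTSeq 0.5.3p9 and build mm10 are named in the submitters' processing notes. The sources used here do not give the annotation or strand setting, so overlapping genes are uncertain. All rows named a gene, and 0 sample columns were unused.

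Tests on the counts used edgeR 4.0.16 and R 4.3.3 (quasi-likelihood, robust, TMM, default filter, two-sided) with Benjamini-Hochberg adjustment over 14618 genes and a threshold of 0.05. SEs come from the F statistic. CPM uses TMM-scaled library sizes, and log2 CPM a prior count of 2. DESeq2 1.42.0 was an alternative, as were other scalings, no filter and left-out libraries. Replicates are pools from multiple litters. The fits were tested on data simulated with an effect of the library number, which cannot check whether the number is a valid block here. Pairing was checked by correlating same-numbered libraries' deviations from group means, which gave 0.61, 0.51 and 0.47, all above the bound of 0.1. The labels do not say what a number shares, and deviations within 3 libraries are not independent.

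The members and gene lists were chosen with earlier results of these data known. Named genes were the members, list genes called in either edgeR fit (otherwise the 2 with the largest change at mean log2 CPM of at least 1), and for 2 members the 3 genes of nearest profile. Outside this rule, Tubb3, Map2, Ttr, hem markers, pericyte genes, Fos and Dusp1 were named to describe what a list held. For some cell type lists no gene was named. The fixed lists of glia, mural and meningeal, microglia and blood genes gave 0 calls in either fit among 9, 10, 8 and 1 tested genes (log2 fold change medians −0.04, −0.31, −0.26 and 0.14), and 4 haemoglobin genes were at 0 reads. Of the hem and choroid list 0 of 6 passed, and of the 9 genes of the projection neuron list Bcl11b alone passed, with the block. Of the genes first listed, 2 are not reported here and are left out of the list counts and sums.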

Additional observations from a re-analysis of the deposited data

How the results depend on the processing

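Neurog2, Eomes, Dll1, Hes1, Hes5 and Hes6 kept their direction in all 16 alternative settings run, and Dll3 and Notch1 did not. The number of members called, 0, became 1 with the replicate block and was 1, 1 and 0 when number 1, 2 or 3 was left out of the blocked fit (Hes1 lower without number 1, Neurog2 higher without number 2). All genes called, 11, became 506 with the replicate block, 17 with upper-quartile scaling (9 higher and 8 lower), 20 without the filter (11 and 9), 108 with DESeq2, 203 with DESeq2 and the block, and 0 without mutant 3 and wild type 1 together. They ranged from 3 to 35 when 1 library was left out, and were 295, 1874 and 62 without number 1, 2 or 3 in the blocked fit, which then has only 1 residual degree of freedom. Notch1, at −0.0015 in the unblocked fit, turned to 0.0089 with the block, 0.0061 without the filter, 0.012 with DESeq2 and the block and 0.0697 without mutant 3 and wild type 1 together. In the blocked fit it was 0.104 without number 2 and 0.0021 without number 3, and with single libraries left out it ran from −0.142 to 0.217. Dll3 turned to −0.0082 in the blocked fit without number 3, and with single libraries left out it ran from −0.0735 to 0.132. The cause was not tested. With 3 libraries per group, small changes can be missed, and among the members Neurog1, with 9 reads in all, could not be tested.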
